A study of Rattus norvegicus with 16 samples.

Results

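A set of 10 leukocyte-related genes was followed in rat extraocular muscle: Cd53, Cd37, Aif1, Lyz2, Ptprc, Fcer1g, C1qb, Ccl2, Ccl11 and Cma1, which are markers of leukocytes, macrophages and mast cells or, for Ccl2 and Ccl11, chemokines that draw such cells. Every probe set of the array that the platform annotation assigns to a single gene symbol on that list was taken. This gave 15 of the 8799 probe sets, covering 9 of the 10 genes (the array names 4737 genes in this way), and all 15 were among the 7640 that were tested. Fcer1g had no probe set with its symbol alone and was not analysed here. The genes were put on the list because earlier results of these same arrays had shown them apart between extraocular and TA muscle, so their differences between the muscles are a description and carry no test.

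The labels describe rat skeletal muscle and name no strain, age, sex, allele or agent. They form 3 groups: extraocular muscle (EOM, the muscles that move the eye; 4 arrays, 1 for each of 4 numbered samples), TA muscle with a collection label of 6 hours (TA_6h; 8 arrays of 4 numbered samples) and TA muscle with a label of 1 hour (TA_1h; 4 arrays of 2 numbered samples). What the hours count from is not stated, nor is a time for EOM. No label states that the numbers stand for separate animals. The p-values therefore reflect how far these samples vary, and part of that variation may be technical.

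Macrophages and mast cells live in the connective tissue between muscle fibres, where macrophages clear debris and mast cells store proteases in granules that they release on activation. Chemokines are small secreted proteins that bind receptors on leukocytes and direct their movement. Ccl2 acts mainly through Ccr2 on monocytes, and Ccl11, also called eotaxin, through Ccr3 on eosinophils. In pieces of whole muscle, fewer cells of a type and less RNA per cell cannot be told apart.

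Values are scaled linear intensities in arbitrary units. For the log2 differences, intensities under a floor of 56.5 (the 25th percentile of all values) were raised to it, so folds of dim probe sets are understated. In the EOM columns 24.3% of the values lie below 0, and in the TA columns none do, so a difference between EOM and TA and a difference in how their values were made cannot be told apart. A ratio of the middle to the 3′ control of beta-actin, which drops when RNA is broken or copied short, was 0.146 to 0.390 on 5 TA arrays (TA_1h 2b and both arrays of TA_6h samples 3 and 4). It was 0.815 to 1.28 on the remaining 7 TA arrays and 0.891 to 0.978 in EOM. The tissue markers went with the labels: Myh13, the extraocular myosin heavy chain, was 5.18 ± 0.32 higher in EOM than in TA_6h on the log2 scale (limma, adjusted p = 1.89e-06).

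Promoter sequences of 6 of the 10 genes were found in the RefSeq table for rat build GRCr8, each spanning 250 bases before to 50 after the gene's start. Aif1, Ccl2, Ccl11 and Fcer1g had no entry. The 3 shown belong to Cd53 and Lyz2, leukocyte genes read by 1 probe set each whose EOM arrays all lay above the TA arrays, and to the mast cell gene Cma1, whose EOM arrays all lay below them. Each reads 5′ to 3′ on the gene's own strand, which is the minus strand for all 3: Cd53 at chr2:197087847-197088146, Lyz2 at chr7:54797962-54798261 and Cma1 at chr15:33390084-33390383. Capitals mark the letters GAGGAA or its reverse complement TTCCTC in Cd53 and Lyz2, the core that the myeloid factor PU.1 is known to bind, and AGATAA in Cma1, a form of the GATA motif.
Cd53: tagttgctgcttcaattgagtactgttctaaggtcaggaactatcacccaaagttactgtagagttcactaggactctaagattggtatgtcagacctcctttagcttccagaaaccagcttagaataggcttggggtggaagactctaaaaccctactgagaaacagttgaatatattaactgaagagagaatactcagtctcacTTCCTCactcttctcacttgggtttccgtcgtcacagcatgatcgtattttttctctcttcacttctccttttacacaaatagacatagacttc
Lyz2: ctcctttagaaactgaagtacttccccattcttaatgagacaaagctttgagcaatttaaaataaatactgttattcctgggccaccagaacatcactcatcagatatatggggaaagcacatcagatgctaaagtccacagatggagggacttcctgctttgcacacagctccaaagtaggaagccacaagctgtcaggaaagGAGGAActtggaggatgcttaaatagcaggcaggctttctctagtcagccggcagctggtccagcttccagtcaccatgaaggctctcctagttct
Cma1: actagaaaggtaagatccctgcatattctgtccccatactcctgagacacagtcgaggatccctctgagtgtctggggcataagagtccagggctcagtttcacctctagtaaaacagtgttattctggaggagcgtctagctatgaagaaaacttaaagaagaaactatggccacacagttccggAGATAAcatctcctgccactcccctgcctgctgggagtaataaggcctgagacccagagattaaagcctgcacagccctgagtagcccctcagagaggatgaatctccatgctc
On either strand, GAGGAA lay in 5 of the 6 promoters (Cd53, Cd37, Lyz2, Ptprc and C1qb, but not Cma1) and in 27.6% of the 33469 rat promoters in the table. It began 44 bases before the start in Cd53 and 46 before it in Lyz2. The longer GAGGAAGT, which contains GAGGAA, lay in 2 of the 6 (Cd53 and Cd37) and in 2.42% of all promoters. AGATAA lay in Cma1 alone, 64 bases before its start, and in 11.6% of all promoters. TATAAA lay in none of the 6 and in 14.2% of all promoters. These are matches of letters and show no binding.

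Most of the probe sets were brighter in EOM than in either TA group. On 9 of the 15, all 4 EOM arrays lay above all 12 TA arrays: Cd53, 2 probe sets of Aif1, Lyz2, both of C1qb, both of Ccl2, and Ccl11. Over all probe sets tested, 14.7% had every EOM array above every TA array and 21.8% had every EOM array below. On 2, the remaining Aif1 probe set and Cma1, all EOM arrays lay below all TA arrays. Cd37 and the 3 probe sets of Ptprc overlapped.

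In the limma fit, calls mean a Benjamini-Hochberg adjusted p under 0.05 over all 7640 probe sets. Against TA_6h, 10 of the 15 were called higher, where 21.9% of all probe sets were, and 2 lower, where 25.3% were. Against TA_1h, 11 were called higher, where 17.7% were, and 2 lower, where 19.5% were. Nothing is read from these counts, since the genes were chosen on the same differences. The median log2 difference of the 15 was 0.94 against TA_6h and 1.42 against TA_1h, beside -0.11 and -0.09 over all probe sets tested. Both comparisons use the same EOM samples.

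**Figure D1:**
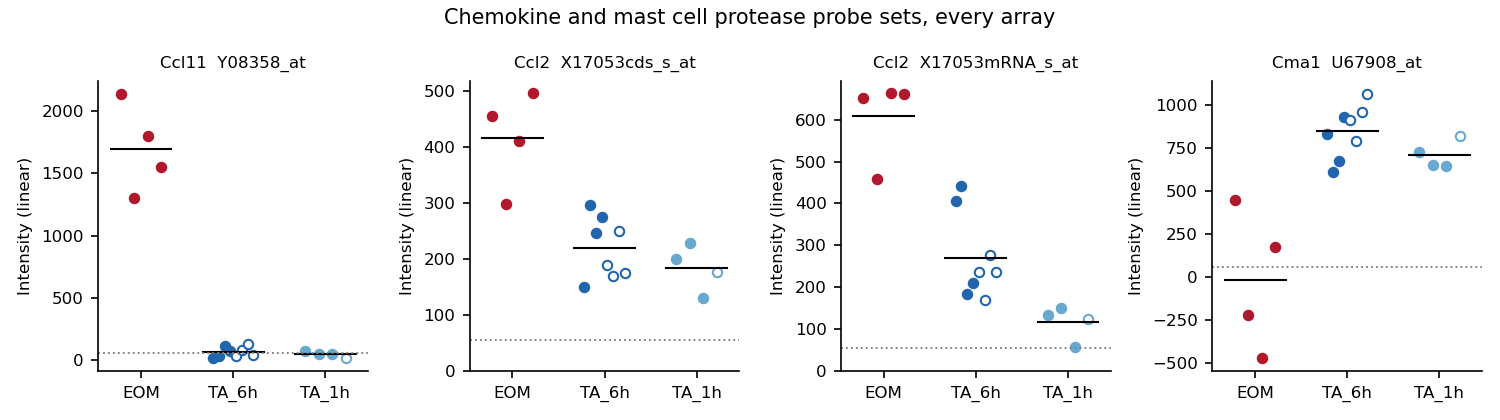
Linear intensity (arbitrary units, vertical axis) of the Ccl11, Ccl2 and Cma1 probe sets on each of the 16 arrays, by group. Points are arrays, open circles are the 5 TA arrays with a low beta-actin ratio, the bar is the mean over numbered samples and the dotted line is the floor of 56.5. Ccl11 lies between 1303 and 2138 in EOM and between 19.9 and 128 in TA, and the 4 Cma1 values of EOM lie below all 12 of TA.

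Ccl11 had the largest difference of the set. Its intensity was 2138, 1303, 1801 and 1553 on EOM arrays 1 to 4. On the 8 TA_6h arrays it ran from 19.9 over a median of 60.4 to 128, and on the TA_1h arrays it was 78.2, 51.1, 52.4 and 21.4. All EOM arrays were thus far above the TA arrays, of which 5 of 12 passed the floor. The group means were 1699 ± 357 (SD, n = 4) in EOM, 67.5 ± 31.3 (SD, n = 4) in TA_6h and 50.8 ± 19.6 (SD, n = 2) in TA_1h, and the TA groups differed by less than their spread. On the floored log2 scale EOM was 4.48 ± 0.22 (SE) higher than TA_6h and 4.77 ± 0.27 higher than TA_1h, or 22.3-fold and 27.3-fold. The low TA values bear on the size: with the floor at the 40th percentile both differences were 3.64, and with it at the 10th they were 4.89 and 5.18.

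Ccl2, the monocyte chemoattractant, was read by 2 probe sets with different TA values. The probe set X17053mRNA_s_at gave 651, 459, 663 and 660 in EOM. Its TA_6h arrays gave 405 and 442 (sample 1), 184 and 211 (sample 2), 238 and 171 (sample 3), and 277 and 237 (sample 4), and its TA_1h arrays 134, 150, 56.9 and 124. The 3 groups therefore lay in the order EOM, TA_6h, TA_1h with no overlap of arrays. Means were 608 ± 99.6 (SD, n = 4), 271 ± 105 (SD, n = 4) and 116 ± 36.3 (SD, n = 2). EOM was 1.23 ± 0.28 (SE) higher than TA_6h and 2.46 ± 0.35 higher than TA_1h on the log2 scale.

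The probe set X17053cds_s_at of Ccl2 gave 456, 299, 411 and 497 in EOM, 149 to 296 in TA_6h with a median of 218, and 201, 228, 131 and 176 in TA_1h. EOM array 2, the lowest, stood just above the highest TA array, 299 against 296. Its means were 416 ± 85.2 (SD, n = 4), 219 ± 33.7 (SD, n = 4) and 184 ± 43.3 (SD, n = 2), and EOM was higher by 0.94 ± 0.21 and 1.18 ± 0.26 on the log2 scale. Scaling all arrays to the same median of their values above the floor lowered the Ccl2 differences from TA_6h to 0.77 and 0.47. EOM arrays had 66.3 to 67.2% of values above the floor and TA arrays 74.6 to 81.0%. This scaling took the median EOM minus TA_6h difference of all probe sets from -0.11 to -0.42, away from no difference.

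The receptors of these chemokines were dim. Ccr2, the receptor of Ccl2, gave 66.6 to 108 in EOM and 19.6 to 142 in TA, with a log2 difference from TA_6h of 0.13 ± 0.24 (limma, adjusted p = 0.66). Ccr3, the receptor of Ccl11, gave -162 to 93.3 in EOM, where 1 of 4 arrays passed the floor, and 23.4 to 338 in TA, with a difference of -0.58 ± 0.31 (adjusted p = 0.15). Neither passed the test against TA_6h, nor against TA_1h (adjusted p = 0.43 for Ccr2 and 0.39 for Ccr3).

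Cd53, a tetraspanin found on nearly all leukocytes, gave 837, 679, 753 and 770 on the EOM arrays. Its 8 TA_6h arrays ran from 71.2 over a median of 117 to 154, and its TA_1h arrays gave 159, 109, 133 and 84.4. All EOM arrays were above all TA arrays, and the EOM samples varied by a CV of 8.56%. Means were 760 ± 65.0 (SD, n = 4) in EOM, 110 ± 20.4 (SD, n = 4) in TA_6h and 122 ± 17.9 (SD, n = 2) in TA_1h. The log2 difference was 2.84 ± 0.18 from TA_6h, which is 7.18-fold, and 2.68 ± 0.22 from TA_1h.

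Cd37, a tetraspanin known best from B cells, did not stand apart in the same way. It gave 308, 158, 210 and 217 in EOM, 104 to 221 in TA_6h with a median of 161, and 129, 200, 80.7 and 46.4 in TA_1h. EOM array 2 lay inside the range of both TA groups. Means were 223 ± 62.4 (SD, n = 4), 160 ± 14.5 (SD, n = 4) and 114 ± 71.1 (SD, n = 2), so that neighbours in this order differed by about the larger SD of each pair or less, and by more than the SD of TA_6h. The log2 difference was 0.48 ± 0.29 from TA_6h and 1.06 ± 0.35 from TA_1h. The latter was 0.44 without TA_1h sample 2 and 1.69 without TA_1h sample 1. The former was 0.011 with all arrays scaled to the same median above the floor.

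Ptprc, which encodes the phosphatase CD45 carried by all white blood cells, was read by 3 probe sets that gave different levels. M25823_s_at gave 440, 455, 450 and 369 in EOM, 216 to 503 in TA_6h and 193 to 445 in TA_1h, with means of 428 ± 40.3 (SD, n = 4), 341 ± 73.9 (SD, n = 4) and 328 ± 67.6 (SD, n = 2). All EOM arrays lay inside the TA range, and the log2 differences were 0.38 ± 0.20 from TA_6h and 0.45 ± 0.24 from TA_1h. With all arrays at the same median above the floor, a scaling that lowers EOM against TA, these became -0.08 and -0.0032.

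K03039mRNA_s_at of Ptprc gave 128, 93.2, 122 and 92.2 in EOM. Only 3 of 8 TA_6h arrays and 1 of 4 TA_1h arrays passed the floor, and TA_6h array 4b, at 116, lay above 2 EOM arrays. The log2 difference was 0.75 ± 0.19 from TA_6h and 0.93 ± 0.23 from TA_1h, and with the floor at the 10th percentile 1.50 and 1.94. M10072mRNA_s_at of Ptprc was near background everywhere: 1 of 4 EOM arrays, 3 of 8 TA_6h arrays and 1 of 4 TA_1h arrays passed the floor, and its differences were -0.14 ± 0.18 and -0.04 ± 0.22. The general leukocyte gene was thus not set apart by the amount that Cd53 was.

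**Figure D2:**
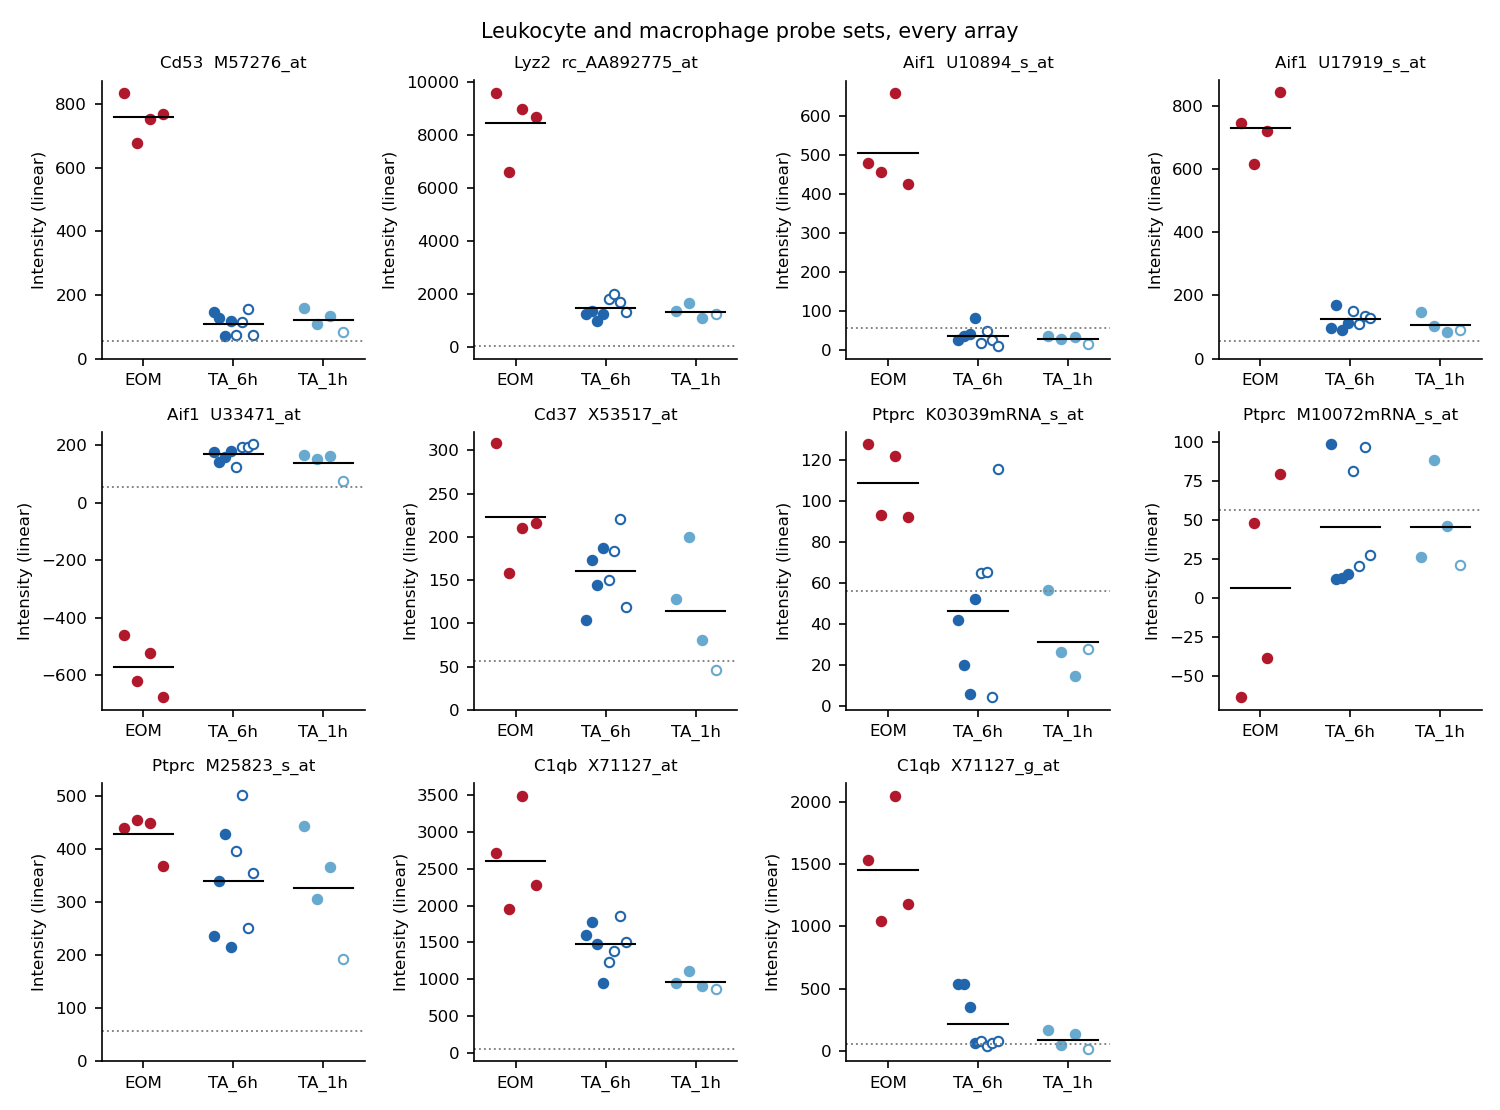
Linear intensity (arbitrary units, vertical axis; scales differ between panels) of the 11 probe sets of Cd53, Lyz2, Aif1, Cd37, Ptprc and C1qb on each array, by group. Points are arrays, open circles are the 5 TA arrays with a low beta-actin ratio, bars are means over numbered samples and the dotted line is the floor. The EOM points of Cd53, Lyz2, 2 Aif1 probe sets and C1qb lie above all TA points, those of Aif1 U33471_at lie below 0, and those of Cd37 and Ptprc overlap with TA.

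Aif1, also called Iba1, is a calcium-binding protein of macrophages and microglia, and its 3 probe sets did not point the same way. U17919_s_at gave 745, 615, 719 and 841 in EOM, 89.0 to 170 in TA_6h, and 149, 102, 82.5 and 88.9 in TA_1h. U10894_s_at gave 480, 457, 658 and 426 in EOM and 10.3 to 80.9 over all 12 TA arrays, of which 1 passed the floor. Both had every EOM array above every TA array.

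The EOM mean of U17919_s_at was 730 ± 93.1 (SD, n = 4), against 124 ± 15.2 (SD, n = 4) in TA_6h and 106 ± 28.1 (SD, n = 2) in TA_1h, and the log2 differences were 2.58 ± 0.18 and 2.82 ± 0.22. For U10894_s_at EOM was at least 8.82-fold higher than TA_1h, where all 4 arrays were at the floor, and its difference from TA_6h was 3.08 ± 0.17 on the log2 scale. That value was 4.0 with the floor at the 10th percentile and 1.89 with it at the 40th. The spread between the TA groups was smaller than the distance of either from EOM.

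The third Aif1 probe set, U33471_at, ran the other way. It gave -461, -622, -524 and -677 in EOM and 76.4 to 203 in TA, where all 12 arrays passed the floor. Intensities below 0 give no level, so EOM has only an upper bound, the floor to which its values were raised. TA_6h was 3.0-fold and TA_1h 2.37-fold above that floor. The log2 difference from TA_6h was -1.58 ± 0.16, and it was -3.60 or -0.35 with the floor at the 10th or 40th percentile. The deposited values do not tell which of the 3 probe sets follows the Aif1 transcript best.

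Lyz2, the lysozyme of macrophages and other myeloid cells, gave 9565, 6613, 8980 and 8656 in EOM. The TA_6h arrays gave 980 to 2027 with a median of 1351, and the TA_1h arrays 1358, 1665, 1091 and 1269. Every EOM array was above every TA array, and no value was near the floor. Means were 8454 ± 1283 (SD, n = 4), 1468 ± 349 (SD, n = 4) and 1346 ± 235 (SD, n = 2), of which the TA means differed by less than their SDs. The log2 difference was 2.55 ± 0.21 from TA_6h (5.85-fold) and 2.65 ± 0.26 from TA_1h (6.30-fold).

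C1qb encodes a chain of C1q, the recognition protein of the classical complement pathway, which tissue macrophages make. X71127_at gave 2718, 1951, 3493 and 2286 in EOM, 955 to 1862 in TA_6h with a median of 1496, and 953, 1108, 904 and 864 in TA_1h. EOM lay above both TA groups, with array 2 only just above the highest TA_6h array. Means were 2612 ± 666 (SD, n = 4), 1476 ± 248 (SD, n = 4) and 957 ± 103 (SD, n = 2), and the log2 differences were 0.82 ± 0.22 and 1.42 ± 0.26. With the same median above the floor on all arrays the first fell to 0.35.

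The other C1qb probe set, X71127_g_at, gave 1529, 1039, 2046 and 1176 in EOM. Among the TA_6h arrays, 534, 536, 350 and 61.8 were measured in samples 1 and 2 and 37.7 to 82.7 in samples 3 and 4, while TA_1h gave 167, 47.9, 134 and 19.6. The TA_6h samples were thus split in this probe set, with an SD of 221 around a mean of 219. The 5 arrays with a low beta-actin ratio gave 19.6 to 82.7, and the other 7 TA arrays 47.9 to 536. The log2 difference of EOM from TA_6h was 3.31 ± 0.58, and 2.32 without those 5 arrays. The part of RNA quality in this probe set was not tested further.

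C1qc, a second chain of the same protein, went against C1qb. Its tested probe set gave 237, 198, 215 and 647 in EOM and 706 to 1290 over the 12 TA arrays. All EOM arrays were below all TA arrays, and the log2 difference was -1.74 ± 0.35 from TA_6h (limma, adjusted p = 0.0028) and -1.53 ± 0.43 from TA_1h (adjusted p = 0.020). Both chains belong to one complex, and their probe sets gave opposite differences on these arrays.

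Cma1 encodes chymase, a protease stored in the granules of connective tissue mast cells. It gave 446, -221, -471 and 174 in EOM, where 2 of 4 arrays lay below 0. In TA_6h it gave 610 to 1063 with a median of 868, and in TA_1h 724, 652, 646 and 819. Every EOM array was below every TA array, and the EOM arrays were spread far more widely than the TA arrays. TA means were 845 ± 123 (SD, n = 4) at 6 hours and 710 ± 31.3 (SD, n = 2) at 1 hour. The floored log2 difference was -2.73 ± 0.58 from TA_6h and -2.49 ± 0.71 from TA_1h, from -3.74 to -2.10 for the former with other floors. The 5 TA arrays with a low beta-actin ratio gave 790 to 1063 and the other 7 gave 610 to 925.

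**Figure D3:**
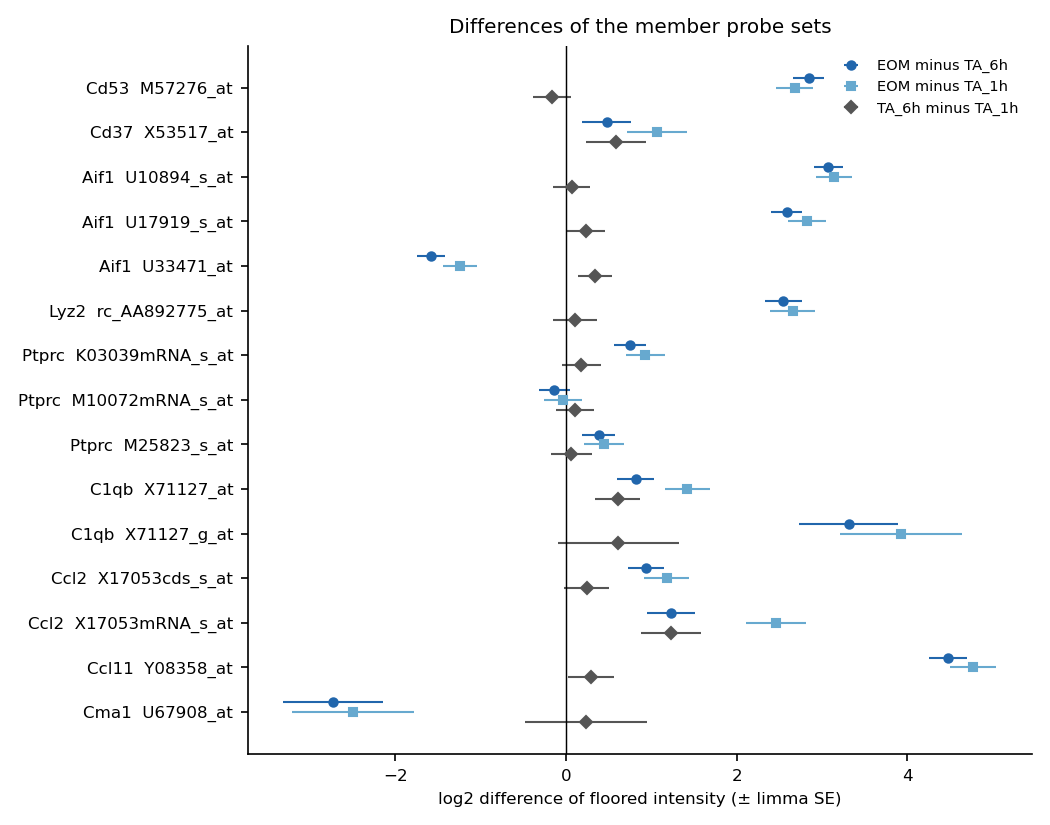
Log2 differences of floored intensity (horizontal axis, with limma standard errors as bars) for the 15 probe sets: EOM minus TA_6h (circles), EOM minus TA_1h (squares) and TA_6h minus TA_1h (diamonds). The EOM differences run from -2.73 for Cma1 to 4.77 for Ccl11, while the TA differences lie between -0.16 and 1.23.

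The comparison of TA_6h with TA_1h, which was not used to choose the genes, gave no call among the 15. Nor did it give one among all 7640 probe sets, of which 0% were called by limma, with 424 at an unadjusted p under 0.05. Of the 15 differences 14 were above 0, with a median of 0.24 beside 0.01 over all probe sets. The share above 0 over all probe sets was not computed. Without TA_1h sample 2, several fell below 0: Cd37 (-0.04), Aif1 U17919_s_at (-0.03), Lyz2 (-0.07), Ptprc M25823_s_at (-0.17) and M10072mRNA_s_at (-0.06), and Ccl2 X17053cds_s_at (-0.008). The remaining probe sets kept their sign, so the lean to one side depends on that sample. The largest difference in the reported fit was that of Ccl2 X17053mRNA_s_at, 1.23 ± 0.35 (SE; 95% interval 0.45 to 2.0; adjusted p = 0.62). Its TA_6h arrays all lay above its TA_1h arrays. How many of all probe sets were separated in this way was not counted, so nothing is read from it. The second Ccl2 probe set gave 0.24 ± 0.26 (interval -0.34 to 0.82; adjusted p = 1).

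Next in size were C1qb, with 0.60 ± 0.26 for X71127_at (interval 0.01 to 1.19; adjusted p = 0.88) and 0.61 ± 0.71 for X71127_g_at (interval -0.97 to 2.20; adjusted p = 1), and Cd37, with 0.59 ± 0.35 (interval -0.20 to 1.37; adjusted p = 0.97). Aif1 U33471_at gave 0.34 ± 0.20 (interval -0.11 to 0.79; adjusted p = 0.97). For Ccl11 the difference was 0.29 ± 0.27 (interval -0.32 to 0.90), for Cma1 0.24 ± 0.71 (interval -1.36 to 1.83) and for Lyz2 0.11 ± 0.26 (interval -0.47 to 0.68), each with an adjusted p of 1. Cd53, the one with a lower TA_6h value, gave -0.16 ± 0.22 (interval -0.65 to 0.32; adjusted p = 1). The interval of Cma1 reaches past a 2-fold change in both directions, and these data do not show that the TA groups are alike.

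Repeat arrays of the same number show how far a single array can stray. Over the 6 pairs of TA arrays, the median log2 gap between repeats was 0.26 for Lyz2, 0.27 for Cma1, 0.65 for Cd53 and 0.87 for C1qb X71127_g_at. The widest gap was 2.50, in TA_6h sample 2 for C1qb X71127_g_at. Within EOM, array 2 was the lowest for 9 of the 15 probe sets, all 9 among the 12 with a higher EOM mean, where 28.1% of all tested probe sets had their lowest EOM value on that array. The cause of this was not tested.

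Genes related to these markers were counted from lists, with 1 probe set a gene. Over all 4317 genes tested that way, 22.3% were called higher and 25.8% lower in EOM than in TA_6h, and 18.1% higher and 19.5% lower than in TA_1h. Every adjusted p in the following paragraphs is from limma. No gene of any list was called between TA_6h and TA_1h.

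Of 19 other macrophage and general leukocyte markers tested, 10 rose and 3 fell in EOM against TA_6h, and 8 rose and 2 fell against TA_1h. Ctss, a lysosomal protease of antigen-presenting cells, was higher by 2.03 ± 0.19 on the log2 scale (adjusted p = 2.58e-05), and Cd48, a surface protein of leukocytes, by 2.40 ± 0.38 (adjusted p = 0.00059). C1qc, above, and the hyaluronan receptor Cd44, at -1.59 ± 0.47 (adjusted p = 0.020), were lower, with Cd44 above the floor on 2 of 4 EOM arrays. The median difference was 0.75, beside -0.10 over all genes. The summed intensity of the 19 genes was 12713 to 15664 in EOM samples, 6927 to 8179 in TA_6h and 5591 to 6487 in TA_1h, so that the groups did not overlap. Bright genes weighed most in this sum. Cd74 had means of 3823, 2100 and 1115 in EOM, TA_6h and TA_1h, and Ctss 3072, 753 and 525. The sum therefore does not speak for the dimmer genes of the list.

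Of 14 other mast cell markers, 3 rose and 2 fell against TA_6h, and 2 rose and 1 fell against TA_1h. The 2 that rose against both TA groups are also expressed by other leukocytes: Alox5ap, needed to make leukotrienes, by 2.21 ± 0.33 (adjusted p = 0.00045), and Srgn, the core of granule proteoglycans, by 1.36 ± 0.20 (adjusted p = 0.00038). Fcer1a, a chain of the IgE receptor, rose against TA_6h only, by 0.84 ± 0.29 (adjusted p = 0.038). Mcpt3, at -0.62 ± 0.20 (adjusted p = 0.025), fell against TA_6h only, with 0 of 4 EOM arrays above the floor. The tryptase genes Tpsb2 and Tpsab1 were not called against either TA group, at -0.15 ± 0.17 and -0.41 ± 0.18 from TA_6h. Mcpt1l1, a mast cell protease gene, fell by 1.71 on the log2 scale with an SE of 0.23 in its brighter probe set (adjusted p = 0.00022). Its other probe set gave 1.57 ± 0.63 against TA_6h (adjusted p = 0.063) and 2.63 ± 0.77 against TA_1h (adjusted p = 0.022). Protease genes of mast cells are close copies of each other, so a probe set's signal can come from more than one of them. The summed intensity of the list was 5064 to 6085 in EOM, 7470 to 9263 in TA_6h and 6433 to 8169 in TA_1h. The brighter Mcpt1l1 probe set weighed most in this sum, with means of 1460, 4765 and 4312 in EOM, TA_6h and TA_1h. The sum therefore gives no direction for the list as a whole, whose median difference from TA_6h was -0.25.

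Markers of eosinophils, the cells that eotaxin draws, were thinly covered. Of the 10 genes listed, 2 were tested, Ccr3 and Il5, and neither passed the test against either TA group. Il5 is a cytokine that acts on eosinophils, so of these only Ccr3 stands for the cells themselves. Il5 lay below 0 on all 4 EOM arrays and above the floor on 7 of 8 TA_6h arrays. Of 6 granulocyte and monocyte genes 1 rose and 1 fell against TA_6h, and none passed against TA_1h. Of 15 lymphocyte markers 3 rose and 5 fell against TA_6h, among them Cd3g, a chain of the T cell receptor complex, at 1.50 ± 0.20 (adjusted p = 0.00023), and Ctla4, an inhibitory receptor of T cells, at -2.50 ± 0.41 (adjusted p = 0.0008). Against TA_1h, 1 rose and 3 fell. Ctla4 was above the floor on 2 of 4 EOM arrays, and 1 EOM array lay below 0, so the size of its difference depends on the floor. A further Ctla4 probe set was tested and is not given here.

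Among 9 other chemokines, 4 rose and 2 fell against TA_6h, and 3 rose and 1 fell against TA_1h. Cxcl13, which draws B cells, was 2.76 ± 0.23 higher than TA_6h (adjusted p = 1.19e-05), with 3 of 8 TA_6h arrays above the floor. Xcl1, a lymphocyte chemokine, was 2.29 ± 0.42 higher (adjusted p = 0.0015), also with 3 of 8 TA_6h arrays above the floor. Pf4 of platelets and macrophages was 1.07 ± 0.23 higher (adjusted p = 0.0040), and Cx3cl1, the membrane-bound fractalkine, was lower, at -1.41 ± 0.24 (adjusted p = 0.0011). Of 9 chemokine receptors 2 rose and 0 fell against TA_6h, and 1 rose against TA_1h. The named one was Ccr1, which binds several CC chemokines, at 1.81 ± 0.31 (adjusted p = 0.0010).

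Of 16 complement genes other than C1qb, 4 rose and 2 fell against TA_6h, and 4 rose and 1 fell against TA_1h. The proteases that C1q activates were among those that rose: C1s by 3.25 ± 0.21 (adjusted p = 2.02e-06) and C1r by 1.48 ± 0.19 (adjusted p = 0.00016). Serping1, the C1 inhibitor that holds both in check, rose by 2.70 ± 0.24 (adjusted p = 1.69e-05). Of 9 tetraspanins other than Cd53 and Cd37, 5 rose and 1 fell against TA_6h, and 6 rose and 1 fell against TA_1h. They were led by Cd9, at 2.91 ± 0.30 (adjusted p = 4.50e-05), which many cell types carry, and Rom1, best known from photoreceptors, at 2.50 ± 0.30 (adjusted p = 0.00011).

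Markers of other cells in the tissue did not all move in one direction. Of 12 fibroblast markers 8 rose and 0 fell against TA_6h, and 9 rose against TA_1h, with a median difference of 1.45 from TA_6h. Lumican (Lum) was 4.42 ± 0.26 higher (adjusted p = 1.44e-06). Their summed intensity was 74361 to 96100 in EOM, 42734 to 71621 in TA_6h and 33313 to 35898 in TA_1h. Of 7 red blood cell markers 0 rose and 1, Hbb-b1, fell against each TA group, and their sum was 28407 to 35381 in EOM, 39587 to 49305 in TA_6h and 37900 to 55655 in TA_1h. Of 16 muscle fibre markers 3 rose and 7 fell against TA_6h, and 4 rose and 5 fell against TA_1h. The part of cell mixture in the leukocyte values was not tested.

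**Figure D4:**
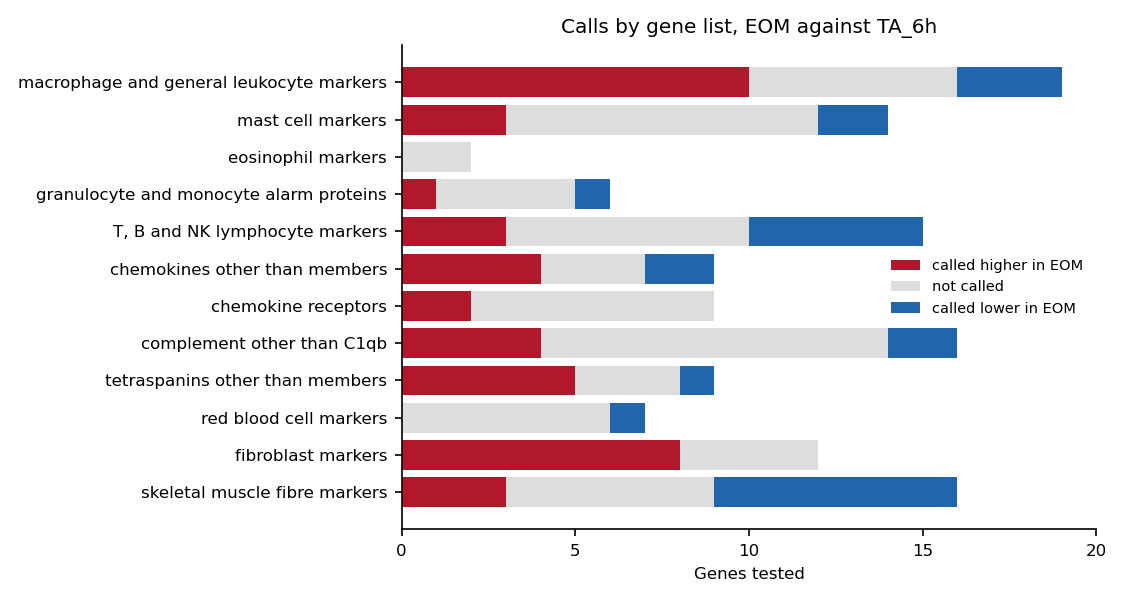
Number of genes tested in each list (horizontal axis), split into those called higher in EOM than in TA_6h (red), not called (grey) and called lower (blue) at a limma adjusted p under 0.05. Fibroblast markers have 8 of 12 and macrophage and general leukocyte markers 10 of 19 genes called higher, and the 2 eosinophil genes have none called.

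The genes whose log2 values ran most like a member's over the 10 numbered samples were taken as a description, since all these correlations rest mainly on the distance between EOM and TA. For Cd53 they were Psmb9, a subunit of the immunoproteasome (r = 0.998), Hsd11b1, which activates glucocorticoids (r = 0.997), and Igf1 (r = 0.993). Over the 6 TA samples alone the values were 0.917, 0.913 and 0.652. For Ccl11 they were the elastic fibre gene Fbln5 (r = 0.995, and 0.787 over TA), Gulp1 (0.995 and 0.591) and Ces1d (0.995 and 0.767). For Cma1 they were Mrto4 (r = 0.984), Tagln, an actin-binding protein of smooth muscle (0.975), and Scnn1g (0.965). Over the TA samples these became -0.31, 0.73 and 0.63. Points of these correlations share arrays, scaling and summary step.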

How the data were processed

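The 16 arrays (4 EOM, 8 TA_6h, 4 TA_1h) each read RNA of rat muscle in a single colour. The deposited intensity values, on a linear scale, were used as the authors deposited them. The sources used here do not state how probes were summarised and scaled. A trimmed mean of 800.0 on every array (2% cut at each end) was read from the values. Values under the 25th percentile, 56.5, were set to it before taking log2. Probe sets above it on at least 4 arrays were tested, without 59 controls. Arrays of one number and group were averaged. TA_6h arrays 1 and 2, which carry no letter, were joined with 1b and 2b, an inference. All 3 groups entered a single fit with limma 3.58.1 in R 4.3.3 (lmFit, eBayes; 7 residual and 2.83 prior degrees of freedom), with Benjamini-Hochberg adjustment over all probe sets, tested on simulated data first. The number of arrays limits the precision. Errors of log2 differences are standard errors, and intervals are at 95%.

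The members and the gene lists were chosen with earlier results of these data known. All probe sets of each member are given. Of each list the text names up to 4 genes, those with the largest difference from TA_6h among genes called against both TA groups in one direction, with each gene read from its brightest probe set. Ccr2, Ccr3, Il5 and the second Mcpt1l1 probe set were named for their tie to members or named genes, after their values were seen. Fcer1a, Mcpt3, Tpsb2, Tpsab1 and Cd74 were also named outside that rule, after their values were seen. Gene names come from the platform's annotation, in which 7018 probe sets have 1 symbol, 308 several and 1473 none listed. Other floors, scalings, filters, a replicate block and leaving out samples or arrays were tried. Plots used matplotlib 3.10.9 (Python 3.11.15).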

Additional observations from a re-analysis of the deposited data

Results flagged for a closer look

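Of 30 groups of 4 samples screened (15 probe sets in EOM and in TA_6h), 4 held a sample that stood apart, measured as its gap to the nearest sample over the group's whole range, and chance gives about 1 in 20. For Cd37 in TA_6h the share was 0.864, with sample 1 lowest, at 139 against 165 to 170. For Aif1 U17919_s_at in TA_6h it was 0.888, with sample 2 lowest, at 101 against 129 to 133. For Ptprc M25823_s_at in EOM it was 0.832, with sample 4 lowest, at 369 against 440 to 455. For Ccl2 X17053mRNA_s_at in EOM it was 0.943, with sample 2 lowest, at 459 against 651 to 663. Without EOM sample 2, each Ccl2 and C1qb difference from TA kept its sign.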

How the results depend on the processing

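No member was called between TA_6h and TA_1h in the reported fit or in any of 22 other settings that tested it, with a lowest adjusted p of 0.22 (limma, Ccl2 X17053mRNA_s_at, each array as its own sample). Of 640 member differences from TA recomputed, 576 moved by less than 1 SD, 64 by more, and 8 took the other sign, 6 of them for Ptprc M10072mRNA_s_at and 2 for M25823_s_at. The 576 include settings that leave a difference as it was by construction, such as another filter or each array as its own sample. Fitting only the groups compared, or leaving out a sample of a group outside the comparison, does the same. The count is therefore no measure of how stable the differences are. Of 320 differences between the TA groups, 15 took the other sign. Over all probe sets, requiring a value above the floor on all 16 arrays gave 1927 calls for EOM against TA_6h (3606 as reported), 1512 against TA_1h (2843) and 1 between the TA groups (0), with fewer probe sets tested. Between the TA groups, no filter gave 8 calls, each array as its own sample 1, and leaving out the 5 TA arrays with a low beta-actin ratio 45, of which 33 were higher at 6 hours. Leaving out those arrays removed TA_6h samples 3 and 4 entirely and 1 array of TA_1h sample 2. The samples compared thus changed together with the RNA quality. The cause of these calls was not tested. Leaving out each sample in turn gave 3156 to 3514 calls against TA_6h, 1861 (without TA_1h sample 1) to 3045 against TA_1h, and 0 to 1 between the TA groups, the call appearing without TA_6h sample 3 or 4. Where a single TA_1h sample was left, it was assumed to vary like the other groups. Scaling to the same median above the floor shifted the median of all probe sets by -0.32 against TA_6h. It turned the split to 996 higher and 2917 lower, and to 869 and 2355 against TA_1h. The replicate block gave 3507, 2540 and 0 calls. Numbers are shared between groups, but no label states whether they pair the samples, and the reported fit did not pair them. Deviations of same-numbered EOM and TA_6h samples correlated at 0.105, 0.021, 0.032 and 0.071. Still, 4 of 4 EOM samples correlated best with their own number, a hint from the data and not the design. Between TA_6h and TA_1h the correlations were 0.389 for number 1 and -0.418 for number 2. With 2 TA_1h samples, their deviations from the group mean are mirror images of each other. These correlations are therefore not independent and cannot decide on pairing.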
